A study of Mus musculus with 9 samples.

Results

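Extracellular nucleotides and adenosine signal through 2 families of P2 receptor and through the adenosine receptors. The 10 mouse genes described here are the ATP-gated channels P2rx4 and P2rx7, the nucleotide receptors P2ry6, P2ry12, P2ry13 and P2ry14, the adenosine receptors Adora2a and Adora2b, and the ectonucleotidases Entpd1 (CD39) and Nt5e (CD73). They and the gene lists used further below were chosen by name with earlier results of these data known. The shares of all genes printed beside their counts are therefore a description and not a test. All 10 were found by their Entrez identifiers among the 18755 genes of the deposited count table. All 10 also passed the filter on low counts, together with 13966 genes in all.

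Cells release ATP and other nucleotides when they are damaged, stressed or activated. CD39 removes phosphates from extracellular ATP and ADP, and CD73 converts the resulting AMP to adenosine, so that the ligands of P2 receptors are turned into the ligand of adenosine receptors. In inflamed tissue and tumors, P2X7 is known for starting inflammasome activation in macrophages, P2Y6 for phagocytosis, P2Y12 as a receptor of platelets and microglia, and the receptor encoded by Adora2a for restraining T cells.

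The genes were compared in 4T1 primary tumors, which grew from 1000000 cells of this murine metastatic breast cancer line in the mammary fat pad of female BALB/c mice aged 6 to 10 weeks at injection. BI 853520, an inhibitor of focal adhesion kinase (FAK), was given to the mice of 6 tumors (BI). The dose was 50 mg/kg daily by oral gavage for 5 days from day 15 after injection, in 0.5% Natrosol. The 3 control tumors came from mice that received the 0.5% Natrosol vehicle alone (vehicle). According to the paper, tumors whose RNA quality was insufficient were left out. No transgene or engineered allele is named for either group, the hosts kept their immune cells, and each library was made from pieces of 1 tumor, so cancer cells and host cells were measured together. In such pieces, fewer cells of a type and less RNA per cell cannot be told apart. The labels do not say further how the tumors differ, and p values measure the spread between these tumors.

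Total counts ranged from 21727879 to 33850245 per vehicle tumor and from 16931607 to 22349873 per BI tumor. The counts of the 10 genes ranged from 43 to 9814 per tumor. Levels are given as CPM, which are counts scaled to a common library size after TMM normalization, and levels of different genes are compared only as CPM per kilobase of gene length (CPM per kb). The quasi-likelihood F test of edgeR was fitted to all 13966 genes. A gene was called higher or lower where its p, adjusted by the method of Benjamini and Hochberg, did not exceed 0.05.

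Of the 10 genes, 7 were higher in BI tumors: both P2X channels, the 4 P2Y receptors and Entpd1. None was lower, and Adora2a, Adora2b and Nt5e did not pass the test. Over all genes tested, 14.6% were called higher and 14.1% lower. All 10 log2 fold changes were above 0, so that no gene was lower by an unadjusted p either, and DESeq2 and limma-voom called 7 genes higher and 0 lower as well. The median log2 fold change was 0.69 over the 10 genes and -0.00371 over all genes tested. In each of the 7 genes every BI tumor lay above every vehicle tumor, which held for 14.1% of all genes. By the cutoffs of the study (an unadjusted p of at most 0.05 and a change of at least 1.5-fold), 6 genes were higher, since P2rx4 missed the limit on fold, beside 9.57% of all genes, and 0 were lower, beside 3.57%. With the adjusted p and a change of at least 1.5-fold, the same 6 genes were higher and 0 lower, beside 7.8% and 2.97% of all genes.

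**Figure D1:**
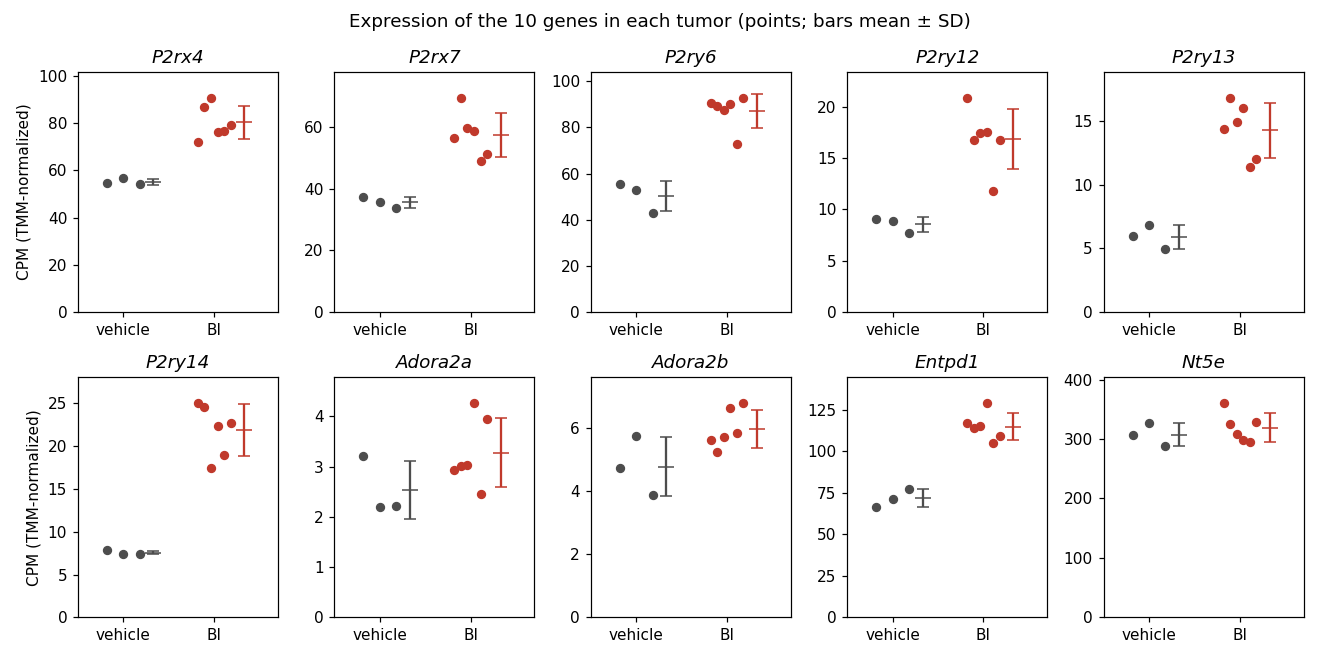
TMM-normalized CPM (linear axes from 0) of each gene in 3 vehicle tumors (gray) and 6 BI tumors (red), with points for single tumors and bars for mean ± SD. In 7 panels all red points lie above all gray points, while the groups overlap for Adora2a, Adora2b and Nt5e.

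The 3 genes with the largest differences lie close together on the minus strand of chromosome 3, within a stretch of 148 kb. P2ry14 lies at chr3:58918548-58934546, P2ry13 at chr3:59011818-59014804 and P2ry12 at chr3:59020193-59066753 (mm9, GENCODE annotation). The gap between P2ry13 and P2ry12 is 5.39 kb and, on the minus strand, lies between the start of P2ry13 and the end of P2ry12. All 3 lie within Med12l, a gene of the opposite strand at chr3:58810900-59122332, but no annotated exon of them overlaps an exon of another gene. The 250 bases upstream of each start are printed because the 3 receptors rose together, with that of Nt5e as a gene with the highest level and no call. The sequences are from RefSeq (GRCm38.p6), were located in mm9 by exact match, read 5′ to 3′ on the gene's strand, and have each CG dinucleotide in capitals. For genes with several starts in RefSeq (P2ry14, P2rx7 and Entpd1), the window nearest to the annotated mm9 start was used.
P2ry14, chr3:58934685-58934934, minus strand: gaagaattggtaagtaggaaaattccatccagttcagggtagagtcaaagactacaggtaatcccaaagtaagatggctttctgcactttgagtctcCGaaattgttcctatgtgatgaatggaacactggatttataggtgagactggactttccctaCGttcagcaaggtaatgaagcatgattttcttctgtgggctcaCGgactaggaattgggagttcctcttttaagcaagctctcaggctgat
P2ry13, chr3:59014805-59015054, minus strand: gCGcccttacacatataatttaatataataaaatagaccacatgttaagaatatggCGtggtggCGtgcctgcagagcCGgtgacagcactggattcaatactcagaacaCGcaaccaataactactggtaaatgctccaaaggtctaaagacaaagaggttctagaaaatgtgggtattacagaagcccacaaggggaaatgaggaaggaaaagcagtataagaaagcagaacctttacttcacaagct
P2ry12, chr3:59066908-59067157, minus strand: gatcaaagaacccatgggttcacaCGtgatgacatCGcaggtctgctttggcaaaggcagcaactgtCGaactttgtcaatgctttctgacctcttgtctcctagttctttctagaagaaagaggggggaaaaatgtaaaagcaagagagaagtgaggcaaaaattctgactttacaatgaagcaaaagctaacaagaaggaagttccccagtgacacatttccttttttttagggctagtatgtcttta
Nt5e, chr9:88222197-88222446, plus strand: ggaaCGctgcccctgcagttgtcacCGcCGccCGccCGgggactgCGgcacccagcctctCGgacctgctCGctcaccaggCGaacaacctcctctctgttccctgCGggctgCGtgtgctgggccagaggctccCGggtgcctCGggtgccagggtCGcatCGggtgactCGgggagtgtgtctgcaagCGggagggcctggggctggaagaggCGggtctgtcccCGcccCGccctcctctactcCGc
The CG dinucleotide, which reads the same on both strands, occurred 3 times in the window of P2ry14, 5 times in that of P2ry13 and 3 times in that of P2ry12, against 21 times in that of Nt5e. The G and C content was 42.8%, 41.6%, 41.6% and 72%. Of 32851 RefSeq windows of the same length, 92.1% held at least 1 CG, the median count was 6, and 16.3% held as many as the window of Nt5e or more. As many CG as P2ry14 and P2ry12 or fewer were held by 37.8% of the windows, and as many as P2ry13 or fewer by 49.6%. The other windows used were those of P2rx7 (6), P2rx4 (13), Entpd1 (18) and Adora2b (22), so that 8 of the 10 genes matched an entry, without P2ry6 and Adora2a. The counts of CG describe these windows alone, and no methylation or binding was measured.

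P2ry14 encodes a receptor for UDP-glucose and other UDP-sugars. It measured 7.84, 7.42 and 7.45 CPM in vehicle tumors and 25.03, 24.5, 17.5, 22.3, 19.0 and 22.7 CPM in BI tumors. The vehicle tumors were nearly equal, and the lowest BI tumor lay far above them. The means were 7.57 ± 0.231 (SD, n = 3) and 21.8 ± 3.01 CPM (SD, n = 6), a 2.89-fold difference (log2 fold change 1.53, SE 0.125, edgeR adjusted p = 1.86e-05). It was the largest change of the 10 genes.

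P2ry13 encodes a receptor for ADP. It measured 5.96, 6.84 and 4.95 CPM in vehicle tumors and 14.4, 16.8, 14.9, 16.0, 11.4 and 12.1 CPM in BI tumors. The groups were separated by a wide gap, with BI replicates 5 and 6 as the lowest treated tumors. The difference was 2.43-fold (log2 fold change 1.28, SE 0.152, edgeR adjusted p = 0.000137).

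P2ry12 encodes the ADP receptor that antiplatelet drugs block. It measured 9.03, 8.85 and 7.75 CPM in vehicle tumors and 20.9, 16.7, 17.5, 17.5, 11.8 and 16.7 CPM in BI tumors. BI replicate 5 was again lowest and still above each vehicle tumor. The difference was 1.98-fold (log2 fold change 0.99, SE 0.150, edgeR adjusted p = 0.000635).

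The neighbours in the same stretch were also measured. Gpr171, a receptor gene beside P2ry14 on the same strand, measured from 11.8 to 14.4 CPM in vehicle tumors and from 26.6 to 31.8 CPM in BI tumors (log2 fold change 1.16, SE 0.0929, edgeR adjusted p = 1.9e-05). Med12l itself, which encodes a Mediator subunit, measured from 1.24 to 1.88 CPM in vehicle tumors and from 2.74 to 4.63 CPM in BI tumors (log2 fold change 1.28, SE 0.233, edgeR adjusted p = 0.00196). Igsf10, whose exons overlap those of Med12l on the opposite strand, had 7.01 ± 1.67 and 15.6 ± 6.98 CPM. Its groups overlapped, and its call (log2 fold change 1.15, edgeR adjusted p = 0.0285) ended without any one of the 3 vehicle tumors (adjusted p = 0.0740, 0.109 and 0.0609) and with limma-voom (0.0645). The use of strand in counting is not given in the sources used here, so that reads of Med12l and Igsf10 in their shared exons may not have been told apart.

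**Figure D2:**
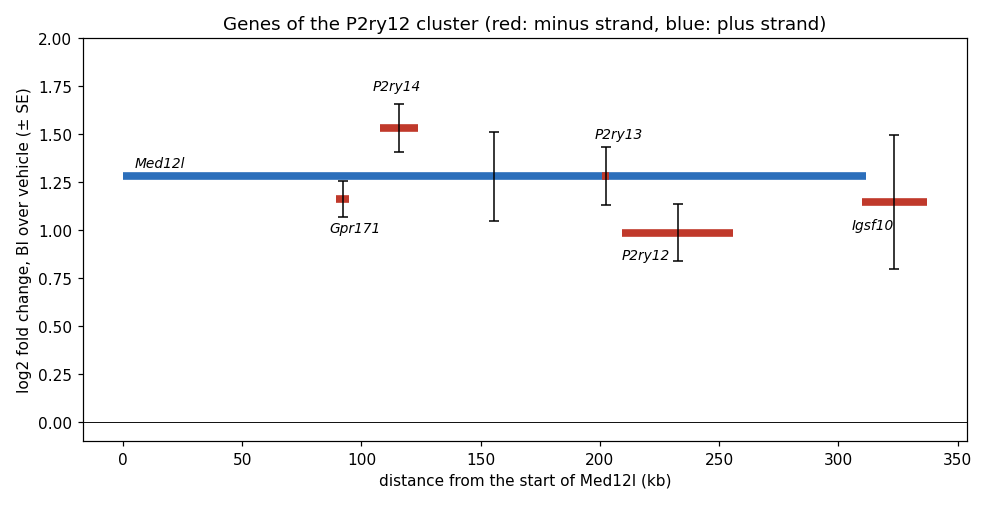
Log2 fold change of BI over vehicle (vertical axis, ± SE) of the genes around P2ry12, drawn as bars over their extent in kb from the start of Med12l (horizontal axis), with red for the minus and blue for the plus strand. The 6 genes shown lie between 0.99 (P2ry12) and 1.53 (P2ry14).

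P2ry6, on chromosome 7 (chr7:108086152-108112905, minus strand), encodes a receptor for UDP. It measured 55.3, 52.7 and 43.1 CPM in vehicle tumors and 90.7, 89.2, 87.8, 90.1, 72.7 and 92.9 CPM in BI tumors. Apart from BI replicate 5, the treated tumors lay close together, and all were above the vehicle tumors. The means of 50.4 ± 6.44 (SD, n = 3) and 87.2 ± 7.31 CPM (SD, n = 6) differed 1.74-fold (log2 fold change 0.80, SE 0.0942, edgeR adjusted p = 0.000134).

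The ATP-gated channel genes P2rx7 (chr5:123093920-123141441) and P2rx4 (chr5:123157593-123179747) are neighbours on the plus strand of chromosome 5, 16.2 kb apart. P2rx7, which encodes a channel opened by high levels of ATP, measured 37.3, 35.6 and 33.8 CPM in vehicle tumors and 56.3, 69.5, 59.8, 58.7, 49.0 and 51.3 CPM in BI tumors. The treated tumors were all higher, by 1.62-fold on the fitted scale (log2 fold change 0.69, SE 0.100, edgeR adjusted p = 0.000453). P2rx4, which encodes a channel opened by lower levels of ATP, measured 54.6, 56.7 and 54.4 CPM in vehicle tumors and 72.3, 86.7, 90.9, 76.2, 76.9 and 79.1 CPM in BI tumors. Its vehicle tumors were nearly equal, and the difference of 1.45-fold was the smallest of the 7 that passed (log2 fold change 0.54, SE 0.0749, edgeR adjusted p = 0.000356).

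Of the ectonucleotidases, Entpd1 was called higher and Nt5e was not. Entpd1 (chr19:40686856-40816092, plus strand) measured 66.6, 71.6 and 77.4 CPM in vehicle tumors and 117, 114, 115, 129, 105 and 109 CPM in BI tumors. All treated tumors were higher, with a difference of 1.60-fold (log2 fold change 0.68, SE 0.0732, edgeR adjusted p = 7.57e-05). Nt5e (chr9:88222447-88266927, plus strand) measured 307, 327 and 289 CPM in vehicle tumors and 361, 325, 309, 298, 295 and 328 CPM in BI tumors. The groups overlapped, with 2 of 6 BI tumors above all vehicle tumors. Its log2 fold change was 0.05 (95% interval -0.11 to 0.21, edgeR adjusted p = 0.615), and the interval leaves out changes as large as that of Entpd1.

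The adenosine receptors were among the lowest of the 10 genes. Adora2a (chr10:74779688-74797533, plus strand), which encodes a receptor of high affinity for adenosine, measured 3.21, 2.19 and 2.21 CPM in vehicle tumors and 2.93, 3.02, 3.04, 4.27, 2.45 and 3.94 CPM in BI tumors. Only 2 of 6 BI tumors exceeded all vehicle tumors (log2 fold change 0.38, 95% interval -0.10 to 0.85, edgeR adjusted p = 0.213). Adora2b (chr11:62062486-62079955, plus strand), which encodes one of low affinity, measured 4.72, 5.72 and 3.86 CPM in vehicle tumors and 5.62, 5.21, 5.70, 6.61, 5.82 and 6.78 CPM in BI tumors. Here 3 of 6 BI tumors exceeded all vehicle tumors (log2 fold change 0.33, 95% interval -0.00033 to 0.66, edgeR adjusted p = 0.123). A difference in either gene was not detected, and both intervals include changes of the size measured for P2rx4.

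**Figure D3:**
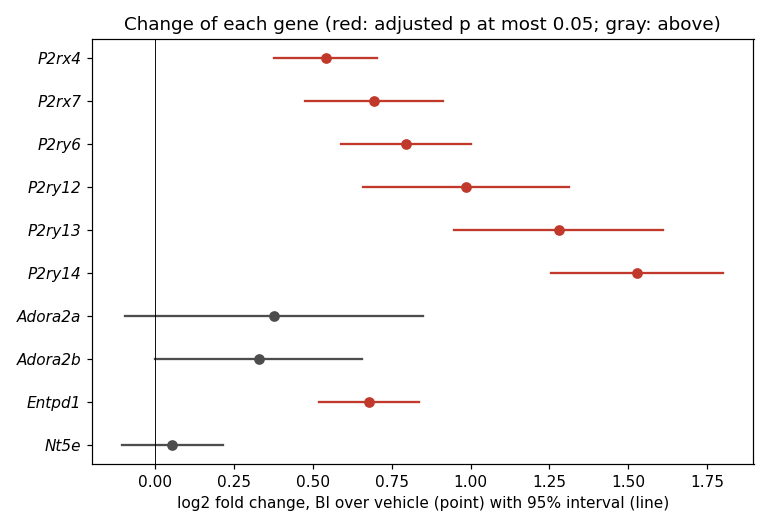
Log2 fold change of BI over vehicle (horizontal axis) with its 95% interval for each of the 10 genes. The intervals of the 7 red genes (adjusted p of at most 0.05) lie above 0, while those of the 3 gray genes include it.

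To ask whether genes of one role changed by different amounts, 6 differences between 2 genes were taken within each tumor on the log2 CPM scale and compared between groups by an exact permutation test (two-sided, 84 divisions, smallest possible p = 0.0238). Entpd1 minus Nt5e rose from -2.10 ± 0.171 to -1.47 ± 0.150, a shift of 0.62 (SE 0.116, exact p = 0.0238). P2ry12 minus P2ry14 went from 0.17 ± 0.102 to -0.38 ± 0.239, a shift of -0.55 (SE 0.114, exact p = 0.0238). In both the groups did not overlap, so that the p was the smallest the design allows, but adjusted over the 6 comparisons it was 0.0714. The other shifts were -0.30 for P2ry12 minus P2ry13 (exact p = 0.119), 0.16 for P2ry12 minus P2ry6 (0.190), 0.15 for P2rx7 minus P2rx4 (0.214) and 0.03 for Adora2a minus Adora2b (0.905). None of the 6 passed after adjustment. For Entpd1 minus Nt5e and P2ry12 minus P2ry14 the exact p could not have been smaller. Given the p values of the other differences, neither could have passed, so the adjusted test cannot decide about them.

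Per length, Nt5e had by far the highest level in vehicle tumors, at 85.9 CPM per kb, which was at or above 94.4% of all genes tested. P2rx4 (27.7 CPM per kb), P2ry6 (26.3) and Entpd1 (17.1) followed, then P2rx7 (6.59), P2ry14 (4.21), P2ry12 (3.65), Adora2b (2.59), P2ry13 (2.34) and Adora2a (1.00). Neighbours in this order had separate ranges over the 3 vehicle tumors apart from P2rx4 with P2ry6 and Adora2b with P2ry13. In BI tumors P2ry6 (45.5 CPM per kb) stood above P2rx4 (40.3) on average, and P2rx4 was the higher of the pair in 1 of 6 tumors. P2ry14 (12.1 CPM per kb) stood above P2rx7 (10.6), which was the higher in 1 of 6 BI tumors but in 3 of 3 vehicle tumors. P2ry13 (5.64 CPM per kb) stood above Adora2b (3.23) in every BI tumor, whereas Adora2b had been the higher in 3 of 3 vehicle tumors.

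**Figure D4:**
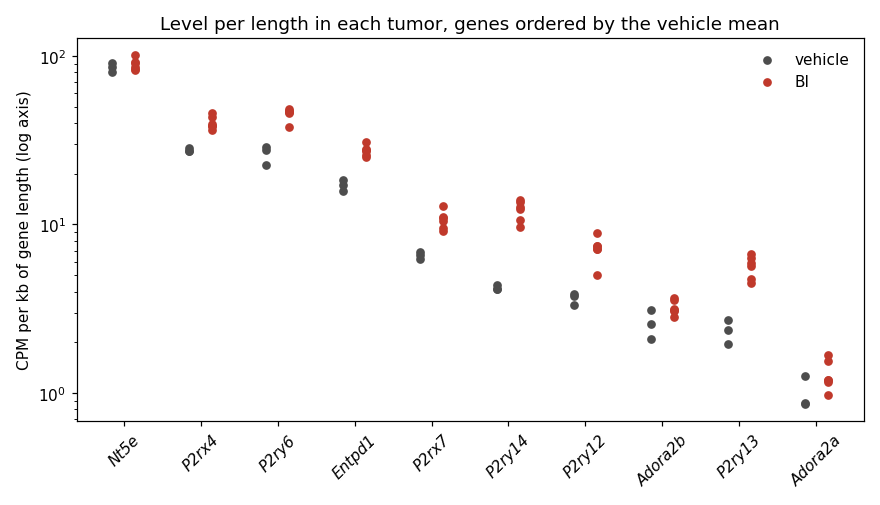
Level of each gene in CPM per kb (vertical log axis) in every vehicle tumor (gray) and BI tumor (red), ordered by the vehicle mean. Nt5e is highest and Adora2a lowest in both groups, while the BI means of P2ry6, P2ry14 and P2ry13 lie above those of the genes to their left.

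Of the remaining genes for nucleotide and adenosine signaling and of the cluster neighbours, 64 were tested in 9 lists, of which 25 were higher (39.1%, beside 14.6% of all genes) and 6 lower (9.38%, beside 14.1%). Their median log2 fold change was 0.24. Among the other receptors, P2ry10 was higher (7.39 ± 0.529 to 11.7 ± 2.09 CPM, log2 fold change 0.67, edgeR adjusted p = 0.00639), and so was its close relative P2ry10b (0.53, adjusted p = 0.0273). The call of P2ry10b ended without any one vehicle tumor (adjusted p = 0.0678, 0.0776 and 0.0917) or without BI replicate 4 (0.0508). Its log2 fold change without a vehicle tumor was 0.52 to 0.55. Fewer of all genes were called higher in these fits as well (1332 to 1516, against 2040 with all tumors). P2ry10 and P2ry10b encode lysophospholipid receptors rather than nucleotide receptors by present knowledge. Because only unique alignments were kept, reads that matched both genes equally would not have been counted. Adora3, which encodes the A3 receptor, rose from 2.62 ± 0.492 to 5.01 ± 1.47 CPM (log2 fold change 0.95, edgeR adjusted p = 0.0159), a call that ended without vehicle replicate 3 (0.0836). P2ry2, the most counted of the other P2Y genes, had 15.2 ± 0.798 and 16.3 ± 2.18 CPM (edgeR adjusted p = 0.515). Of the other P2X channels only P2rx1 could be tested, and it did not pass (0.597 ± 0.179 and 0.763 ± 0.315 CPM).

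Of the 13 other ectoenzymes tested, 5 were higher and 1 was lower. Enpp2, which encodes autotaxin, rose from 5.69 ± 0.568 to 14.9 ± 4.52 CPM (log2 fold change 1.40, edgeR adjusted p = 0.00146). Enpp1, which releases AMP from ATP, rose from 7.06 ± 0.596 to 12.5 ± 2.04 CPM (0.83, adjusted p = 0.00161), and the NAD-consuming enzyme Bst1 from 53.0 ± 2.98 to 67.3 ± 4.33 CPM (0.34, adjusted p = 0.0031). The relatives of CD39 that passed were Entpd5 (0.43, edgeR adjusted p = 0.0116) and Entpd7 (0.41, adjusted p = 0.0162), both of which act mainly inside cells or as a secreted form. Entpd7 lost its call without vehicle replicate 1 (0.0503) or 2 (0.0636). Alpl, the tissue-nonspecific alkaline phosphatase, fell (log2 fold change -0.56, edgeR adjusted p = 0.0101). Without vehicle replicate 3 its log2 fold change was -0.46, and the call ended (adjusted p = 0.0650). Cd38, the most counted, had 99.5 ± 13.4 and 123 ± 37.2 CPM and did not pass.

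Of the 9 genes tested for nucleoside uptake and adenosine removal, 5 were higher and 1 was lower. Adenosine deaminase (Ada) rose from 15.8 ± 0.817 to 24.7 ± 2.82 CPM (log2 fold change 0.64, edgeR adjusted p = 0.00101), and Dpp4, whose human protein binds adenosine deaminase at the cell surface, from 6.09 ± 0.320 to 12.5 ± 2.49 CPM (1.03, adjusted p = 0.00118). The nucleoside transporters Slc29a1 (188 ± 19.3 to 295 ± 48.9 CPM, log2 fold change 0.65, edgeR adjusted p = 0.00314), Slc28a2 (0.69, 0.00103) and Slc29a3 (0.43, 0.000354) were higher as well. Slc29a2 was lower (-0.50, edgeR adjusted p = 0.0427), but its call ended without any one vehicle tumor (0.0520, 0.0715 and 0.223), without BI replicate 1, 2, 3 or 4 (0.0524, 0.0615, 0.0712 and 0.0787), and with thinned counts (0.0837).

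Genes downstream of the receptors were called in both directions. Their counts are to be read beside the 14.6% higher and 14.1% lower of all genes. Of 8 inflammasome genes, the adaptor gene Pycard (14.1 ± 2.71 to 24.7 ± 4.62 CPM, log2 fold change 0.81, edgeR adjusted p = 0.00398) and Gsdmd (0.18, 0.0283) were higher. Il1b, the cytokine gene whose product is released after P2X7 activation, fell from 141 ± 17.4 to 88.7 ± 17.2 CPM (log2 fold change -0.67, edgeR adjusted p = 0.00475), and Nek7, the most counted, fell as well (-0.22, 0.018). The call of Gsdmd ended without vehicle replicate 2 or 3 (0.125 and 0.0903) or BI replicate 4 (0.0535), and that of Nek7 without vehicle replicate 1 or 3 (0.0750 and 0.0650). Nlrp3 was not called (log2 fold change 0.25, edgeR adjusted p = 0.0543). Some alternatives did call it higher, among them DESeq2 (adjusted p = 0.0433) and limma-voom (0.0441). Of 21 genes for G proteins and the cAMP pathway, 7 were higher and 1 was lower, but 3 were higher without vehicle replicate 1 and 4 without vehicle replicate 3. Over all genes, those called higher also fell from 2040 to 1474 and 1332 in these fits. The largest changes of those called were in Gna15 (6.37 ± 0.423 to 12.5 ± 1.89 CPM, 0.98, adjusted p = 0.000458) and in the regulatory subunit gene Prkar2b (151 ± 14.5 to 96.8 ± 11.2 CPM, -0.64, 0.000532). By p value, Adcy7 (0.40, edgeR adjusted p = 0.00319), Gnaq (0.27, 0.0144) and Adcy4 (0.58, 0.0199) came next. Gnaq lost its call without vehicle replicate 3 (0.0610), and Adcy4 without vehicle replicate 1 or 3 (0.0857 and 0.0669). The other 3 called genes also lost their calls, Adcy9 under 5 of the alternatives (adjusted p from 0.0542 to 0.138), Prkacb without vehicle replicate 1 or 3 (0.0844 and 0.106), and Crem without vehicle replicate 1 (0.118). Gnas, the most counted, had 1240 ± 21.2 and 1112 ± 60.1 CPM (edgeR adjusted p = 0.0953). Every BI tumor lay below every vehicle tumor in Gnas, and DESeq2 called it lower (adjusted p = 0.0282). Of 4 genes tested for nucleotide release none was higher, and Gja1, the most counted, was lower (-0.29, adjusted p = 0.0463), a call that ended under 11 of the alternatives (adjusted p from 0.0504 to 0.199).

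Marker lists of the cell types that such pieces can hold were measured in the same tumors, and their counts are to be read beside the 14.6% higher and 14.1% lower of all genes. Of 12 macrophage markers, 10 were higher and 1 (Cd14) was lower, with a median log2 fold change of 0.86, and their summed level was 2210 to 2832 CPM in vehicle tumors and 3974 to 4761 CPM in BI tumors. The most counted were Mrc1 (518 ± 137 to 914 ± 219 CPM) and C1qa (358 ± 57.7 to 747 ± 71.2 CPM). Of 7 genes tested from the microglia signature, which P2ry12 and P2ry13 are often listed with, Cx3cr1 (20.1 ± 4.04 to 55.0 ± 16.0 CPM, 1.46, edgeR adjusted p = 0.000674) and Gpr34 (7.40 ± 1.60 to 16.9 ± 3.04 CPM, 1.19, 0.00063) were higher. Tmem119 had 10.8 ± 1.81 and 15.2 ± 5.23 CPM and did not pass. Sall1 was too low to be tested.

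Of the other lists of leukocyte markers, 9 of 11 T cell genes (median log2 fold change 1.08), 5 of 6 NK cell genes (1.18), 5 of 7 dendritic cell genes (1.01), 2 of 4 B cell genes (0.81) and 5 of 6 mast cell genes (3.01) were higher. The summed level of the T cell markers was 83.9 to 92.6 CPM in vehicle tumors and 151 to 211 CPM in BI tumors. That of the NK cell markers was 29.5 to 39.5 and 75.1 to 95.2 CPM, that of the dendritic cell markers 72.2 to 88.2 and 113 to 175 CPM, that of the B cell markers 4.83 to 8.02 and 5.94 to 11.3 CPM, and that of the mast cell markers 24.2 to 42.2 and 46.2 to 350 CPM (vehicle, then BI tumors). Of 11 neutrophil genes 5 were lower and 6 were not called (median log2 fold change -0.66, from -1.43 to 0.30), so the fall was not general to the list. The summed level of the neutrophil genes was 1134 to 1313 CPM in vehicle tumors and 404 to 888 CPM in BI tumors. The most counted were Mmp9 (517 ± 150 and 319 ± 130 CPM, edgeR adjusted p = 0.101) and S100a9 (384 ± 72.6 and 156 ± 34.8 CPM, 0.000235). Of 4 platelet genes 1 was higher, Gp1ba, which had at most 0.0458 CPM in vehicle tumors and a mean of 0.557 ± 0.367 CPM in BI tumors, and Pf4, the most counted, had 41.1 ± 11.1 and 46.9 ± 9.06 CPM. The platelet markers summed to 37.3 to 59.2 and 38.1 to 66.8 CPM. Of the genes of the tissue itself, 3 of 8 endothelial and 2 of 8 fibroblast genes were higher (beside 14.6% of all genes), 2 of 9 epithelial genes (Krt18 and Krt8) were lower (beside 14.1%), and none of 5 adipocyte and 5 skeletal muscle genes passed. The endothelial markers summed to 409 to 420 CPM in vehicle tumors and 459 to 553 CPM in BI tumors, and the fibroblast markers to 1519 to 2511 and 2054 to 4050.1 CPM. The epithelial markers summed to 956 to 1181 CPM in vehicle tumors and 750.3 to 959.9 CPM in BI tumors, with Krt18 as the most counted. Their median log2 fold change was 0.11 (from -0.85 to 1.36), and 7 of the 9 were not called, so the fall was not general to the list. The part of these cell types in the changes of the 7 receptor and ectonucleotidase genes was not tested.

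**Figure D5:**
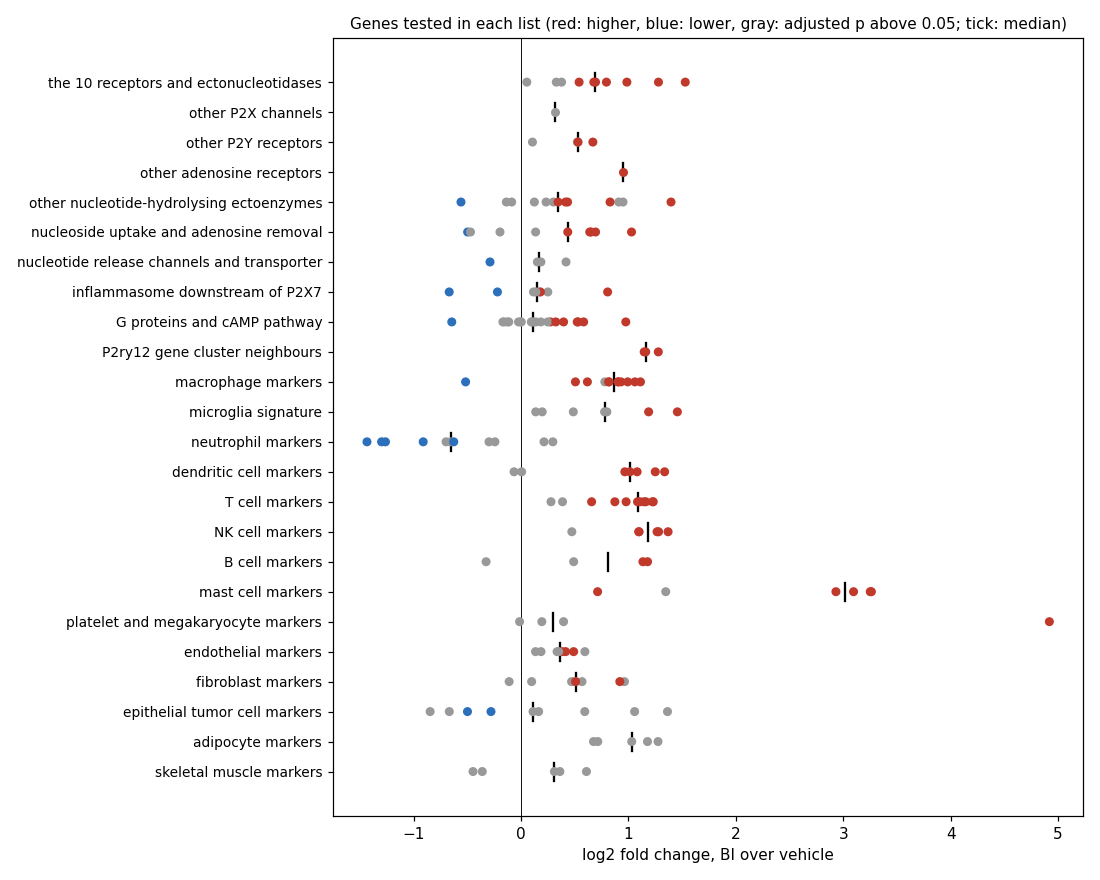
Log2 fold change of BI over vehicle (horizontal axis) of each tested gene in the lists of pathway genes and cell type markers (rows), in red where higher, blue where lower and gray where the adjusted p was above 0.05, with a tick at the median. The 10 receptor and ectonucleotidase genes have a median of 0.69, the macrophage markers 0.86 and the neutrophil markers -0.66.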

How the data were processed

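RNA was sequenced from pieces of 9 tumors, with stranded libraries and paired ends. The authors aligned reads to mm9 with STAR, kept unique alignments, and used QuasR to count reads by their start within exons of RefSeq genes. The deposited values are these raw counts for 18755 genes, with the gene lengths. The version of STAR and the use of strand and mates in counting are not given in the sources used here. All sample columns were used.

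BI and vehicle tumors were compared with the quasi-likelihood F test (edgeR 4.0.16, R 4.3.3) without covariates, after TMM scaling and filterByExpr (minimum count 10, minimum total 15), after the code was tested on simulated data. Intervals are 95% intervals from the same fit. Log2 CPM used a prior count of 2. A floor of 3 counts corresponded to 0.0883 to 0.174 CPM, and it covers counting error only. Symbols came from RefSeq (18700 genes matched), and positions from a GENCODE annotation of mm9. Alternatives were RLE factors, library size alone, other filters, DESeq2 1.42.0, limma-voom (limma 3.58.1), edgeR's likelihood ratio and exact tests, thinned counts, other cutoffs, a prior count of 0.5 for the within-tumor differences, and leaving out each tumor. The replicates are numbered within each group in the order of deposition, and the labels name no batch.

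The 10 genes and all lists were chosen with earlier results of these data known. The text names the 10 genes, the most counted gene and up to 5 called genes of each pathway list, the 2 most counted genes of a marker list where these are given, and the neighbours of the P2ry12 cluster. Tmem119, Sall1, Cd14, Gp1ba, Cx3cr1, Gpr34, Entpd7, Slc29a2, Adcy9, Prkacb, Crem and Nlrp3 were named after their values were seen. A few genes named by these criteria are not reported here. Of 199 list entries, 2 (Entpd4b and Ly6g) had no row in the counts.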

Additional observations from a re-analysis of the deposited data

Results flagged for a closer look

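Of the 16 sets of values checked for a tumor that stood apart (the 10 genes and the 6 differences in BI tumors), 1 had such a tumor. P2ry6 measured 72.7 CPM in BI replicate 5, while the nearest of the other 5 BI tumors had 87.8 CPM, a gap of 0.744 of the range of the group. Chance alone gives about 1 in 20 groups such a tumor. BI replicate 5 was also the lowest BI tumor in P2rx7, P2ry12, P2ry13, Adora2a, Entpd1 and Nt5e. Without it 7 of the 10 genes were called higher.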

How the results depend on the processing

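The count of 7 higher and 0 lower genes held for RLE factors, library size alone, both other filters, DESeq2, limma-voom, the likelihood ratio and exact tests, thinned counts and each of the 9 omissions of a tumor. It was 6 and 0 under both rules with a limit of 1.5-fold, which P2rx4 missed. Leaving out a tumor moved the log2 fold change of P2ry12 between 0.91 and 1.08 (largest adjusted p = 0.00647), and Adora2b reached at best an adjusted p of 0.0565. The pathway genes called higher went from 25 to 13 under the study's cutoffs and to 13 with adjusted p and 1.5-fold, and those called lower from 6 to 2 under both. Leaving out a tumor gave 18 to 26 higher and 2 to 6 lower pathway genes, with 3 lower without vehicle replicate 1 and 2 without vehicle replicate 3. Over all genes, 2040 were called higher and 1973 lower with all tumors. These counts were 1474 and 1289 without vehicle replicate 1, 1516 and 1550 without replicate 2, and 1332 and 1172 without replicate 3. Calls that ended without a vehicle tumor are to be read beside this general loss of calls. Adora2a minus Adora2b shifted by -0.0205 without BI replicate 4 and by -0.20 to 0.20 over all omissions; the cause was not tested. Without a vehicle tumor the differences could not be tested, since the smallest possible p is above 0.05. No paired analysis was possible because the groups share no numbered replicates in the labels. Adora2a, with the fewest counts, had the widest interval.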
